A study of Mus musculus with 6 samples.

Results

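The 31 genes described here encode the enzymes and transporters of glycolysis and the genes that cells switch on when oxygen is scarce. They were chosen as a list by name, with earlier results of these data known. All 31 were found among the 31017 genes of every count matrix. Their levels were read in single cells of mouse knee synovium, the soft tissue around the joint space, with a droplet 3' kit that counts each captured transcript once by its unique molecular identifier (UMI). There were 6 groups with 1 library each: healthy wild type mice, healthy Notch3-/- knockout mice, wild type mice with arthritis, Notch3-/- knockout mice with arthritis, mice with arthritis under an Isotype control, and mice with arthritis under antiNotch3 mAB, a monoclonal antibody. Arthritis followed the transfer of serum from K/BxN mice, an autoimmune strain whose serum inflames the joints of recipients. Each library pooled synovium of 10 mice, and live cells were sorted with no gate for cell type. The part of Notch3 removed in the knockout, the strains and ages of the mice and the antibody doses are not given in the sources used here.

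Glycolysis splits glucose into pyruvate in the cytosol. Glucose transporters (Slc2a1, Slc2a3) let the sugar in, hexokinases (Hk1, Hk2) trap it, phosphofructokinases (Pfkl, Pfkp) commit it to breakdown under the control of Pfkfb3, and lactate dehydrogenase (Ldha) with the lactate exporter Slc16a3 removes the product when pyruvate is not burned in mitochondria. When oxygen falls, the prolyl hydroxylases Egln1 and Egln3 no longer mark the transcription factor subunit Hif1a for destruction, and the factor raises most of these genes along with Bnip3 (mitophagy), Adm (the vasodilator peptide adrenomedullin), P4ha1 and P4ha2 (collagen prolyl hydroxylases), Ndrg1, Hilpda (lipid droplets) and Car9 (carbonic anhydrase). Hif1a activity is set largely at the protein level, which RNA counts do not show. Inflamed synovium is known as a tissue with low oxygen and high lactate.

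Cells were assigned to classes from raw UMIs of marker genes that are not among the 31. Of 18491 deposited barcodes, 18077 had at most 10% mitochondrial UMIs, with medians of 3988 to 7561 UMIs per barcode over the libraries. The gates held 11223 fibroblasts (1061 to 3595 per library), 4406 mononuclear phagocytes (479 to 957) and 1004 endothelial cells (117 to 207). Within fibroblasts, 2465 were lining cells, which border the joint space and were gated by Clic5, Tspan15, Col22a1, Htra4 and Prg4, and 5470 were sublining cells, gated by Thy1 and Cd34. Within phagocytes, 1250 were resident macrophages, 588 monocytes and 436 MHC-II-high macrophages. Neutrophils numbered 41, in 4 of the libraries. Libraries shared 5 to 29 barcode sequences pairwise. Levels are CPM, counts per 1000000 UMIs of the class in a library. They are 3' tags with no scaling by gene length, and pseudogene copies leave the counts of Gapdh, Ldha, Aldoa, Pgk1, Eno1, Tpi1 and Pkm uncertain. In sums over a class, a different mix of subtypes and a different level per cell cannot be told apart. The numbers in the library tags lie next to each other within each arthritic pair and far apart between the healthy libraries. Whether these tags follow the order of preparation was not tested. Since no group has a replicate library, library preparation cannot be told apart from disease or from genotype in health. Notch3 itself, over all kept barcodes, in health was at 4.96 CPM in wild type and 0.288 in knockout cells, at 5.55 in arthritic wild type and 0.253 in arthritic knockout cells, and at 3.30 with isotype and 2.17 with antiNotch3 antibody.

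Start sites were searched for the core of the motif bound by hypoxia-inducible factors. RefSeq promoter windows (GRCm38.p6, 250 bases before to 50 after a start) were found for 29 of the 31 genes, 28 by symbol and Ero1l by its synonym, with 40 windows in all, and none was used for Slc2a3 and Ndrg1. ACGTG was searched on both strands, where its reverse complement reads CACGT, and 24 of 40 windows (60.0%) held it, against 19.6% of all 32851 windows. Among the 7071 windows at least as rich in CpG as the median of the members' windows (23 CpG), the share was 29.1%. With GCGTG (reverse complement CACGC) also allowed, 34 of 40 windows (85.0%) had a match, against 43.8% of all windows and 74.7% of the CpG-rich ones. The matches describe these letters only. ACGTG also overlaps CACGTG, the motif of other factor families. The first windows of 5 members whose differences are described below are shown 5' to 3' on the strand of the gene, with matches to either motif in capitals: Slc16a3 (chr11:120948817-120949116, plus strand), Hif1a (chr12:73907617-73907916, plus), Slc2a1 (chr4:119108495-119108794, plus), Hk2 (chr6:82774405-82774704, minus) and Adm (chr7:110627407-110627706, plus).
Slc16a3: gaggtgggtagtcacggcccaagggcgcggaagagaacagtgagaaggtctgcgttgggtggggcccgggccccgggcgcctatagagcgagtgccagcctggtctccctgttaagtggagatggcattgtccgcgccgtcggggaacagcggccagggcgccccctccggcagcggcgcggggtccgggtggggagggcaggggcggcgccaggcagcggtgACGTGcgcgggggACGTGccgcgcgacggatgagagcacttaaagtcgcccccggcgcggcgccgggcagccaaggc
Hif1a: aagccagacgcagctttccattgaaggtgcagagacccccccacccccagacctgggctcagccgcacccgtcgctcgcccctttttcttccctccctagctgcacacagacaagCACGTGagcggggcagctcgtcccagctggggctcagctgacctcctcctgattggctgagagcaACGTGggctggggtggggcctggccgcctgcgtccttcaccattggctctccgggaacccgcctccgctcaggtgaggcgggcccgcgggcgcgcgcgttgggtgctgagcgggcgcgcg
Slc2a1: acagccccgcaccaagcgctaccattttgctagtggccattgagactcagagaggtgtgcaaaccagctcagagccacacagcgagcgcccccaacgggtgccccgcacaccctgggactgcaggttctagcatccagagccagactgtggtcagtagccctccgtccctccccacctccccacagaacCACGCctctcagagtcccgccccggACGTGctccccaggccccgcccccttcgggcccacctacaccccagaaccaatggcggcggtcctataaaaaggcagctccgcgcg
Hk2: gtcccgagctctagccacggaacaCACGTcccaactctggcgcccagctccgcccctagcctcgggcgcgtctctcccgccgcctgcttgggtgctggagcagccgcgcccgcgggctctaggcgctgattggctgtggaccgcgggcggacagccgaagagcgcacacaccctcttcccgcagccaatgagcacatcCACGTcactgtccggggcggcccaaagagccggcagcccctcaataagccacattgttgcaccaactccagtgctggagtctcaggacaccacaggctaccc
Adm: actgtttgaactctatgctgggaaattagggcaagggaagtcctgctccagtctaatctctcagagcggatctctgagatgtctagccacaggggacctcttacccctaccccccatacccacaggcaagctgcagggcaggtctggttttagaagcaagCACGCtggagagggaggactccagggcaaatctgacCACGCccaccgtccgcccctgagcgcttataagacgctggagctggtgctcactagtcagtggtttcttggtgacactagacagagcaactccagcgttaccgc
The Slc16a3 window held a pair of ACGTG matches, Hif1a held ACGTG within CACGTG and once more, Slc2a1 held ACGTG and CACGC, Hk2 held a pair of CACGT matches, and Adm held only CACGC.

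The comparison of cell classes asked which step of glycolysis each kind of synovial cell expresses, with each library giving 1 difference between classes (6 repeats). Phagocytes had higher levels of Gpi1, Gapdh, Pgk1, Eno1, Pkm and Slc16a3 than fibroblasts, and fibroblasts higher levels of Hk2, Adm, P4ha1, P4ha2, Bnip3 and Ndrg1. Of the 31 genes, 30 passed the filter on low counts. In phagocytes 13 were higher and 7 lower than in fibroblasts at an adjusted p under 0.05 (edgeR), where 30.1% of all 12327 genes were called higher and 35.3% lower. The median log2 difference of the 30 was 0.29, beside -0.06 over all genes. The map of median levels shows the pattern over 5 finer classes.

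**Figure D1:**
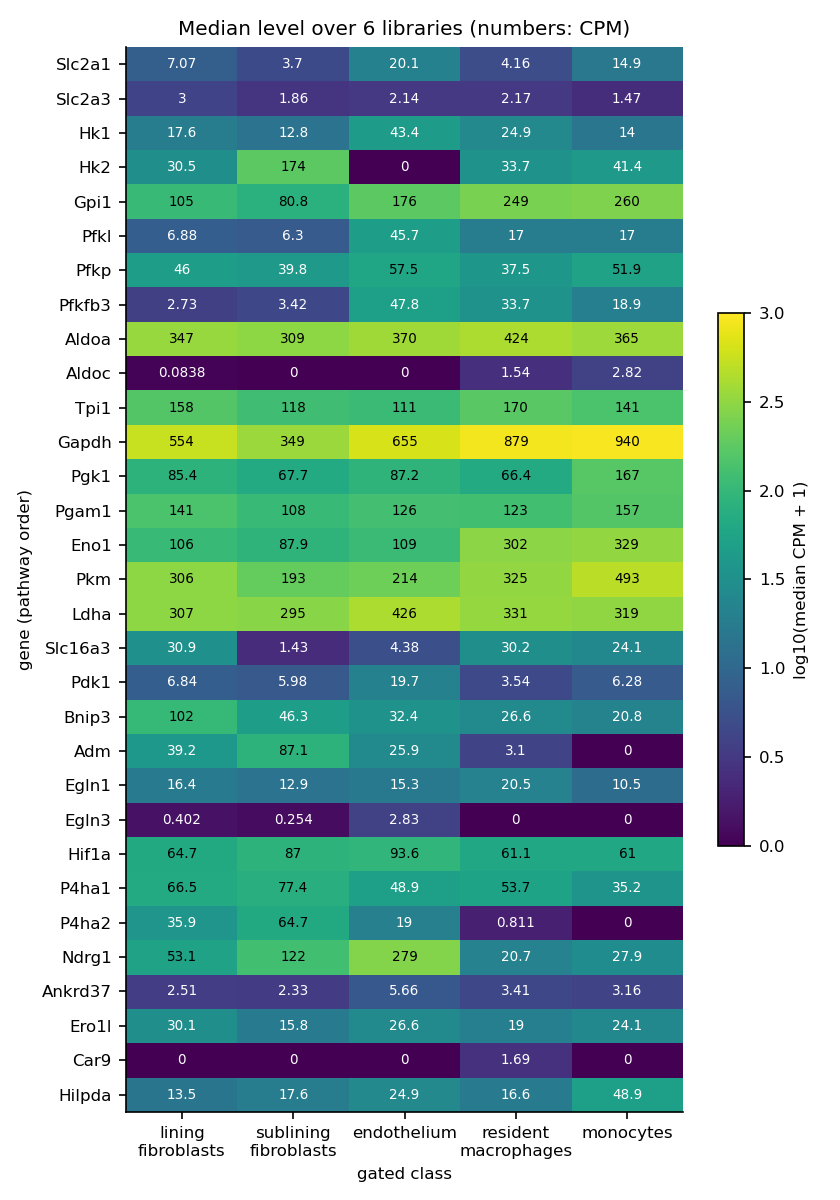
Median level over 6 libraries of the 31 genes (rows, in pathway order) in 5 gated classes (columns). Numbers are CPM and colour is log10 of the median CPM plus 1; Hk2 was at a median of 174 in sublining fibroblasts and 0 in endothelium, and Slc16a3 at 30.9 in lining and 1.43 in sublining fibroblasts.

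At the entry steps, Pfkfb3, whose product makes the activator of phosphofructokinase, ranged from 16.8 to 31.9 CPM in phagocytes (median 25.35) and from 1.31 to 8.70 in fibroblasts (median 3.64). The ranges did not overlap, and the log2 difference was 2.41 ± 0.38 (SE), adjusted p = 2.82e-05. Hk2 went the other way, with 29.2, 41.0 and 52.3 CPM (lowest, median, highest) in phagocytes and 43.8, 140.7 and 170 in fibroblasts, a log2 difference of -1.52 ± 0.17. The isotype library gave the lowest Hk2 level of fibroblasts, so the ranges met, but phagocytes were lower within each of the 6 libraries. Its relative Hk1 was higher in phagocytes by 0.35, Slc2a1 by 1.02 and Pfkl by 1.03, each in all 6 libraries. Gpi1, which converts glucose phosphate to fructose phosphate, was higher in phagocytes in every library, by 1.34 ± 0.10.

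In the middle and lower steps, Aldoc, an aldolase otherwise typical of brain, had 170 of its 177 UMIs in phagocytes, at 2.98 to 15.0 CPM, and 6 UMIs in fibroblasts, at 0 to 0.185 CPM. The ratio of the pooled levels was 98.6 (exact interval 44.4 to 272.5, counting error only). Even so it made up a median of 1.90% of aldolase UMIs in phagocytes, the rest being Aldoa. MHC-II-high macrophages gave 71 of the 170 UMIs, at 29.6 CPM pooled against 1.60 in resident macrophages. The healthy knockout library gave 41 of these 71 UMIs. Without it the pooled levels were 23.2 and 1.77 CPM, a ratio of 13.15 (exact interval 6.26 to 30.15, counting error only). Eno1 (enolase) was higher in phagocytes by 1.23 ± 0.12, Gapdh by 0.88 ± 0.10, Pgk1 by 0.53 and Pkm (pyruvate kinase) by 0.48, in all 6 libraries each. Ldha did not pass the test, with 283 to 447 CPM in phagocytes and 273 to 488 in fibroblasts, nor did Aldoa (0.11), Tpi1 (0.06) and Pgam1 (0.14). The exporter Slc16a3 was higher in phagocytes by 1.18 ± 0.21, at 14.0, 23.7 and 74.1 CPM (lowest, median, highest) against 6.08, 8.655 and 28.8.

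Among hypoxia targets, Adm was at 13.6, 73.4 and 114 CPM (lowest, median, highest) in fibroblasts and at 0 to 3.22 in phagocytes, a log2 difference of -5.46 ± 0.39, adjusted p = 2.67e-09. P4ha2 was at 41.8 to 95.4 CPM in fibroblasts and at 0 to 3.98 in phagocytes, a difference of -4.91 ± 0.30. The small counts in phagocytes came to 0 to 13.04% of the fibroblast level for Adm and 0 to 6.58% for P4ha2. Over the same libraries the 6 fibroblast markers in phagocytes came to 0.226 to 1.43% of their fibroblast level, all 6 being detected in every library. The part of stray fibroblast RNA in these counts was not tested. P4ha1 was lower in phagocytes by less (-0.81), Ndrg1 by -1.43 ± 0.26 and Bnip3 by -1.28 ± 0.22. Hilpda was higher in phagocytes by 1.25 ± 0.26 in 5 of 6 libraries. The lower Hif1a of phagocytes (-0.38, adjusted p = 0.0362) and their higher Slc2a3 (1.35, adjusted p = 0.0199, in 3 of 6 libraries) lost their calls with DESeq2 and when any of several single libraries was left out. For Slc2a3 these were the healthy wild type (adjusted p = 0.0666) or arthritic knockout (0.105), and for Hif1a every library other than arthritic wild type (0.0552 to 0.129).

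**Figure D2:**
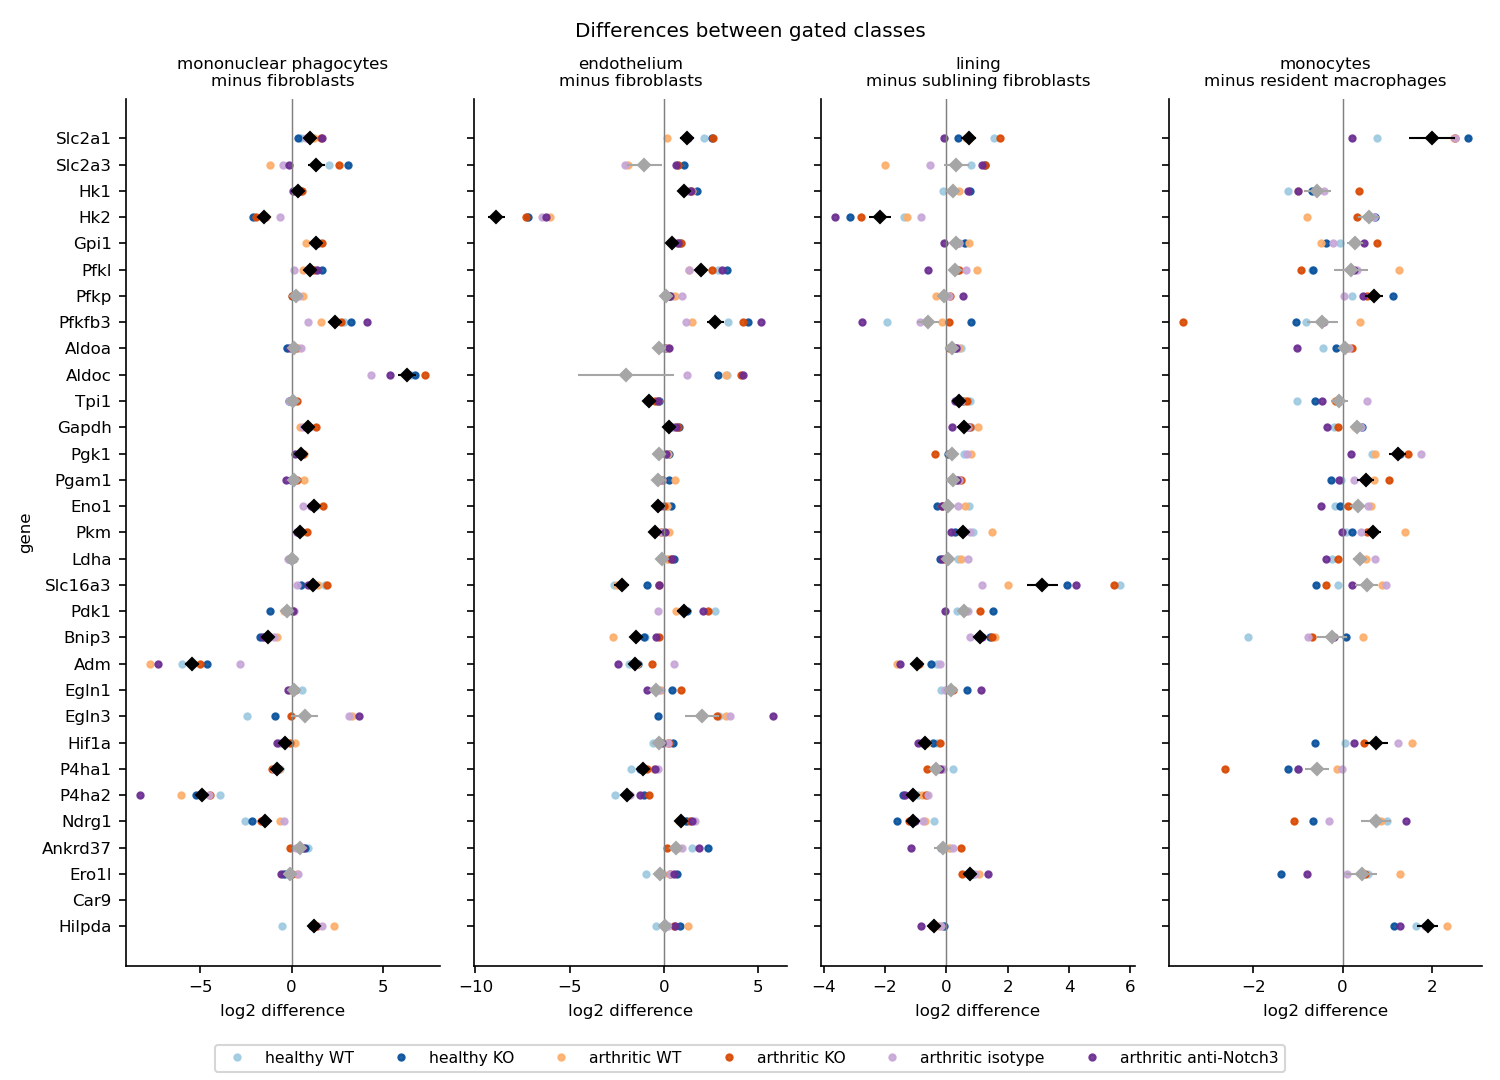
Log2 differences between gated classes for each gene (rows) in 4 comparisons (panels). Coloured points are single libraries (CPM by library totals, pseudocount of 0.5 UMIs), diamonds with bars are the fitted difference ± SE after TMM scaling, and black diamonds passed an adjusted p of 0.05; the points of the endothelium panel sit to the right of the diamonds because the scaling differs, and Car9 was not tested.

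Endothelial cells differed from fibroblasts in the RNA of the committing steps, with almost all hexokinase UMIs from Hk1. Pfkp stayed the phosphofructokinase with the higher median in endothelium (57.5 CPM, beside 45.7 for Pfkl). Hk2 had 1 UMI there, and Hk1, Pfkl, Pfkfb3, Slc2a1 and Ndrg1 were higher than in fibroblasts in every library. Of 30 genes tested, 8 were higher and 9 lower in endothelium, where 21.9% of all 12327 genes were called higher and 28.8% lower. Scaling by library totals alone moved the median of all genes from -0.09 to 0.24 and the calls over all genes from 2702 higher and 3551 lower to 4240 and 2352. The members' calls became 12 higher and 7 lower, so the directions below are relative to the median gene.

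Hk2 gave 1 UMI among the 3410193 UMIs of 1004 endothelial cells, against 8750 UMIs in fibroblasts. The ratio of pooled levels was 414 (exact interval 74.3 to 16360, counting error only), and the level per library was 0 to 1.08% of the fibroblast level per library. Fibroblast markers stood at 0.329 to 1.74% of their fibroblast level in the same cells. Hk1 was at 34.8 to 53.5 CPM in endothelium (median 43.4) and 13.1 to 19.4 in fibroblasts, with no overlap, and differed by 1.08 ± 0.12. Pfkl was at 41.5 to 50.3 CPM against 4.15 to 16.5 (log2 difference 1.93 ± 0.25), again with no overlap. Pfkfb3 was at 20.0, 47.8 and 61.5 CPM against 1.31, 3.64 and 8.70 (lowest, median, highest), a difference of 2.72 ± 0.43. Slc2a1, the transporter of blood vessel walls in brain, was higher by 1.23 ± 0.36, although its range of 5.59 to 27.6 CPM overlapped that of fibroblasts at 2.62 to 11.5.

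Downstream, Slc16a3 was lower in endothelium by -2.25 ± 0.41, with 15 UMIs in all and levels of 0 to 6.33 CPM. Tpi1 was lower by -0.79 ± 0.10 in every library. Among hypoxia targets, Ndrg1 was higher in endothelium than in fibroblasts (165, 279 and 349 CPM against 63.9, 109.6 and 127, lowest, median and highest), by 0.92 ± 0.25, and the ranges were apart. P4ha2 was lower by -1.96 ± 0.29, P4ha1 by -1.12 ± 0.18 and Bnip3 by -1.47 ± 0.27, in all 6 libraries. Adm was lower by -1.54 ± 0.33 in 5 of 6. The calls of Gapdh (0.26), Pdk1 (1.05), Pkm (-0.50) and Eno1 (-0.32) were each lost under other settings, and Eno1 was at 0.03 (adjusted p = 0.898) with library totals alone.

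The shares of UMIs within enzyme families put these class differences on a scale that does not depend on library scaling. Hk2 made up a median of 91.8% of hexokinase UMIs in sublining fibroblasts (range over libraries 82.3 to 95.01%), 64.7% in lining fibroblasts (35.4 to 85.5%), 56.7% in phagocytes (51.5 to 65.4%) and 0% in endothelium (0 to 3.125%), where Hk1 held the rest. Phagocytes alone of these classes had a share of Hk3 above 1%, at 14.2% (8.94 to 21.7%). Pfkl made up 43.0% of phosphofructokinase UMIs in endothelium (34.3 to 50%), 27.3% in phagocytes and 11.4% in lining fibroblasts. Pfkp was the main form in fibroblasts, at 74.2% (55.4 to 83.3%). Ldha held at least 94.7% of lactate dehydrogenase UMIs in every library of these classes. P4ha1 made up 92.9% of collagen prolyl hydroxylase UMIs in phagocytes (91.1 to 100%) and 42.1% in fibroblasts (38.3 to 47.3%), whose other UMIs were P4ha2 and P4ha3. Among the oxygen-sensing prolyl hydroxylases most UMIs were of Egln2, which is not one of the 31, at a median of 74.9% in fibroblasts, and Egln3 held 1.14%. In phagocytes Pdk3 was the main pyruvate dehydrogenase kinase (64.3%), ahead of Pdk1 (20.2%).

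**Figure D3:**
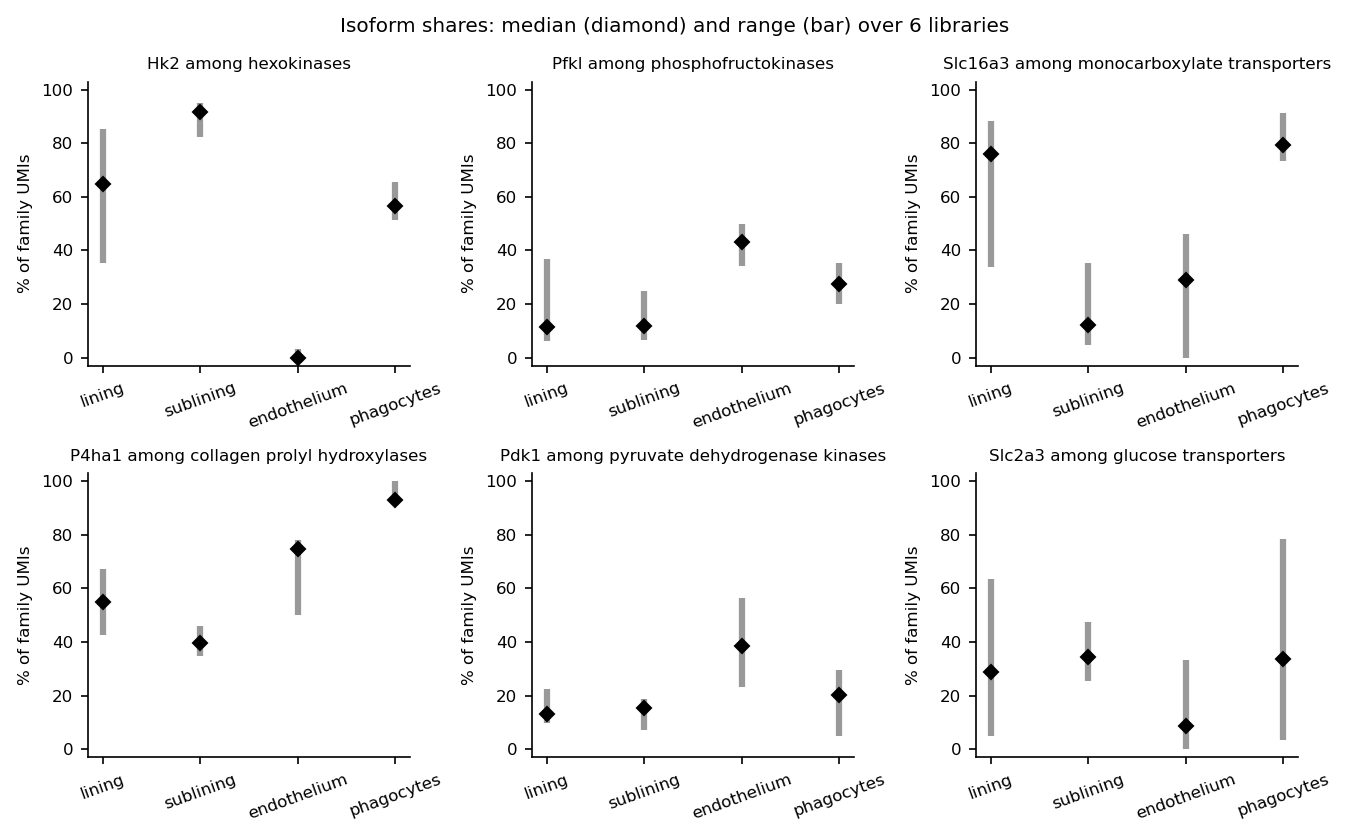
Share of a family's UMIs (percent, y axis) held by 1 gene of the family in 4 gated classes (x axis). Diamonds are medians and grey bars the range over 6 libraries; Hk2 is at a median of 0% in endothelium and Slc16a3 at 76.0% in lining against 12.2% in sublining fibroblasts.

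Among the tested members, lining and sublining fibroblasts differed most in the RNA of the lactate exporter Slc16a3 and of the hexokinase Hk2. Slc16a3 was higher in the lining and Hk2 lower there in every library. Of 28 genes tested, 7 were higher and 6 lower in lining cells, where 16.9% of all 11811 genes were called higher and 18.5% lower. With library totals alone 11 of the 28 were higher and 5 lower, and all genes split into 2880 higher and 1744 lower in place of 1992 and 2187. The median of all genes then moved from -0.00 to 0.13.

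Slc16a3 was at 33.1, 23.6, 31.7, 30.1, 32.6 and 25.7 CPM in the lining, the healthy wild type and knockout libraries first, then arthritic wild type and knockout, isotype and antiNotch3. The sublining levels, ordered likewise, were 0.627, 1.52, 7.61, 0.615, 14.7 and 1.33 CPM. The lining was nearly level across the libraries, while the sublining was raised in the arthritic wild type and isotype libraries. The log2 difference was 3.13 ± 0.51 (adjusted p = 0.000784), and the pooled ratio 8.485 (exact interval 6.92 to 10.5, counting error only). The isotype library gave 72 of the 112 sublining UMIs, and without it the pooled ratio was 19.4 (14.0 to 27.5) and the fitted log2 difference 4.02. Within libraries the log2 difference ran from 1.15 in isotype to 5.67 in healthy wild type. Slc16a3 made up 76.0% of its UMIs with Slc16a1 in the lining (33.8 to 88.1%) and 12.2% in the sublining (4.72 to 35.3%). Slc16a1 held the remaining share of this pair of transporters.

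Hk2 was at 58.9, 23.95, 90.45, 26.0, 35.0 and 9.48 CPM in the lining and at 159.2, 217, 217, 188, 62.6 and 127.5 in the sublining, in the same order of libraries. Each library was lower in the lining, and the log2 difference was -2.17 ± 0.36. Bnip3 was higher in the lining (79.0 to 125 CPM) than in the sublining (30.97 to 50.5), with no overlap, by 1.10 ± 0.11. Ero1l, an oxidase of the endoplasmic reticulum, was higher by 0.78 ± 0.13 (21.95 to 35.1 against 14.7 to 18.4 CPM). Gapdh was higher by 0.57 ± 0.12 and Tpi1 by 0.43 ± 0.09, in all 6 libraries.

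Other hypoxia targets ran the opposite way. Ndrg1 was lower in the lining by -1.08 ± 0.17, P4ha2 by -1.07 ± 0.14 and Adm by -0.94 ± 0.19, in all 6 libraries each. The RNA of Hif1a, the factor subunit itself, was also lower in all 6, by -0.70 ± 0.10. Higher Pkm (0.54) and Slc2a1 (0.73) and lower Hilpda (-0.41) in the lining lost their calls under several settings. Of 31 further regulators and targets of hypoxia-inducible factors, 29 were tested, 6 were higher and 9 lower in the lining. Over all genes 16.9% were called higher and 18.5% lower. Among the 6 higher ones, Epas1, the sister subunit of Hif1a, differed by 2.495 ± 0.14 and Higd1a by 1.59 ± 0.13. Of 24 other glycolysis genes, 18 were tested, with 3 higher and 1 lower: Pfkfb4 was higher by 2.06 and Ldhb lower by -1.74. Genes of the dissociation stress list were lower in the lining for 14 of 16, a difference whose part in these results was not tested.

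Monocytes had higher levels of the transporter Slc2a1, of Pgk1 and of Hilpda than resident macrophages in every library and under both scalings. Of 22 genes tested, 7 were higher and 0 lower in monocytes (edgeR), where 17.7% of all 5986 genes were called higher and 16.0% lower. In all, 12 of the 22 had an unadjusted p under 0.05, and DESeq2 called 4 higher. This comparison moved with the scaling. With library totals alone, 3 genes were higher and 2 lower, and all genes split into 692 higher and 1618 lower in place of 1058 and 960, with the median of all genes at -0.24 in place of 0.01. The monocyte gate held 3.61 to 32.5% of phagocytes and the resident gate 6.79 to 55.3%.

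Hilpda was at 28.55, 34.65, 97.9, 47.4, 97.3 and 50.3 CPM in monocytes, libraries ordered as above, and between 9.12 and 25.4 in resident macrophages. The ranges did not overlap, and the log2 difference was 1.91 ± 0.24, adjusted p = 2.23e-05. Pgk1 was at 76.8, 167 and 227 CPM (lowest, median, highest) against 60.8, 66.4 and 110.2, higher in every library by 1.23 ± 0.19. Slc2a1 was at 5.30, 14.9 and 39.6 CPM against 0.811, 4.155 and 5.635, higher in every library by 2.01 ± 0.51, from 61 and 25 UMIs. Calls for Pkm (0.67), Pfkp (0.70), Hif1a (0.76) and Pgam1 (0.52) were each lost under 2 or more other settings. Gapdh (0.32, adjusted p = 0.0835), Ldha (0.39, 0.0842) and Eno1 (0.34, 0.138) did not pass the test. All 7 proliferation genes that could be tested were also higher in monocytes (median log2 difference 3.13), and their part in these differences was not tested. Of the other hypoxia genes, Vegfa, which recruits vessels, was higher by 4.75 ± 0.81.

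Slc2a3, the high-affinity glucose transporter of white blood cells and neurons, followed neither of these classes. It was at 24.85, 54.0, 0, 27.3, 0 and 9.92 CPM in MHC-II-high macrophages in the same order of libraries, and its pooled level there was 36.2 CPM against 2.03 in resident macrophages. The pooled ratio was 17.8 (exact interval 10.1 to 34.0, counting error only). The healthy knockout library gave 60 of the 87 UMIs, and without it the ratio was 9.10 (4.54 to 19.2). Its level over all phagocytes was 7.22, 21.2, 1.01, 11.8, 1.33 and 2.17 CPM, while MHC-II-high cells were 7.86, 25.3, 1.67, 18.6, 2.59 and 5.065% of phagocytes. Both series were highest in the knockout libraries.

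Neutrophils were too few for a test. No library held 20 of them, and all 41 gave 186008 UMIs. Pooled over 4 libraries, Gapdh was at 968 CPM, Pkm at 613, Aldoa at 484 and Gpi1 at 409. Slc2a3 was at 91.4 CPM (17 UMIs, exact interval 53.2 to 146), and phagocytes of the same 4 libraries were at 5.65, a ratio of 16.2 (8.96 to 27.7). Slc16a3 was at 75.3 CPM (41.2 to 126). Pdk1, Egln1 and Car9 had no UMI, which allows up to 19.8 CPM. Several other genes were sparse everywhere: over all gated classes Car9 had 45 UMIs, Egln3 92, Aldoc 177, Ankrd37 301 and Slc2a3 337.

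The comparison of arthritic libraries in which Notch3 was targeted with those in which it was not (knockout against wild type, antiNotch3 against isotype) addressed the effect of Notch3 on the inflamed joint. In fibroblasts, Hif1a and the transporters Slc16a3 and Slc2a1 were lower and Adm was higher where Notch3 was targeted. Of 28 genes tested, 1 was higher and 3 lower (edgeR), where 1.91% of all 11797 genes were called higher and 1.38% lower. The median log2 difference of the 28 was -0.41, beside 0.00 over all genes. The spread behind this test is the disagreement between the 2 pairs, with 1 residual degree of freedom. It is moderated by edgeR with the spread over all genes, so the p-values rest partly on other genes. Each group is a single library.

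Hif1a in fibroblasts was at 143 CPM in arthritic wild type and 46.3 in arthritic knockout cells, at 190.0 with isotype and 75.65 with antiNotch3, and at 86.7 and 78.9 in the healthy wild type and knockout libraries. Both targeted arthritic libraries lay below both untargeted ones and below the healthy libraries. The log2 difference was -1.40 ± 0.16 (adjusted p = 0.0191). Hif1a encodes the oxygen-regulated subunit, whose protein level is not read here.

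Slc16a3 was at 26.3 and 6.41 CPM in arthritic wild type and knockout fibroblasts, at 28.8 and 7.87 with isotype and antiNotch3, and at 6.08 and 9.44 in healthy wild type and knockout. The targeted arthritic libraries were thus near the healthy ones. The log2 difference was -1.87 ± 0.19 (adjusted p = 0.0144). Within lining cells alone it was -0.23 (adjusted p = 0.643), and within sublining cells alone -3.40 ± 0.48 (adjusted p = 0.000647). The sublining fall rests on 14, 3, 72 and 5 UMIs in the arthritic wild type, knockout, isotype and antiNotch3 libraries. Lining cells, in which Slc16a3 is high, were 38.4% of fibroblasts in arthritic wild type, 10.4% in arthritic knockout, 27.25% with isotype and 20.8% with antiNotch3.

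Slc2a1 was at 11.5 and 3.27 CPM in arthritic wild type and knockout fibroblasts, and at 8.58 and 2.62 with isotype and antiNotch3. Its log2 difference was -1.68 ± 0.27 (adjusted p = 0.0351), from 18 to 139 UMIs per library. The call was lost with DESeq2 (adjusted p = 0.119), with all deposited barcodes (0.0507), in lining cells alone (0.2025) and in sublining cells alone (0.257). Healthy libraries were at 5.50 and 4.53 CPM.

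Adm was at 35.4 and 88.8 CPM in arthritic wild type and knockout fibroblasts, at 13.6 and 65.3 with isotype and antiNotch3, and at 114 and 81.45 in healthy wild type and knockout. The untargeted arthritic libraries were the lowest of the 6. The log2 difference was 1.87 ± 0.25 (adjusted p = 0.0244). It was 1.44 ± 0.27 in sublining cells alone (adjusted p = 0.00505) and 0.997 ± 0.25 in lining cells alone (0.0750).

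**Figure D4:**
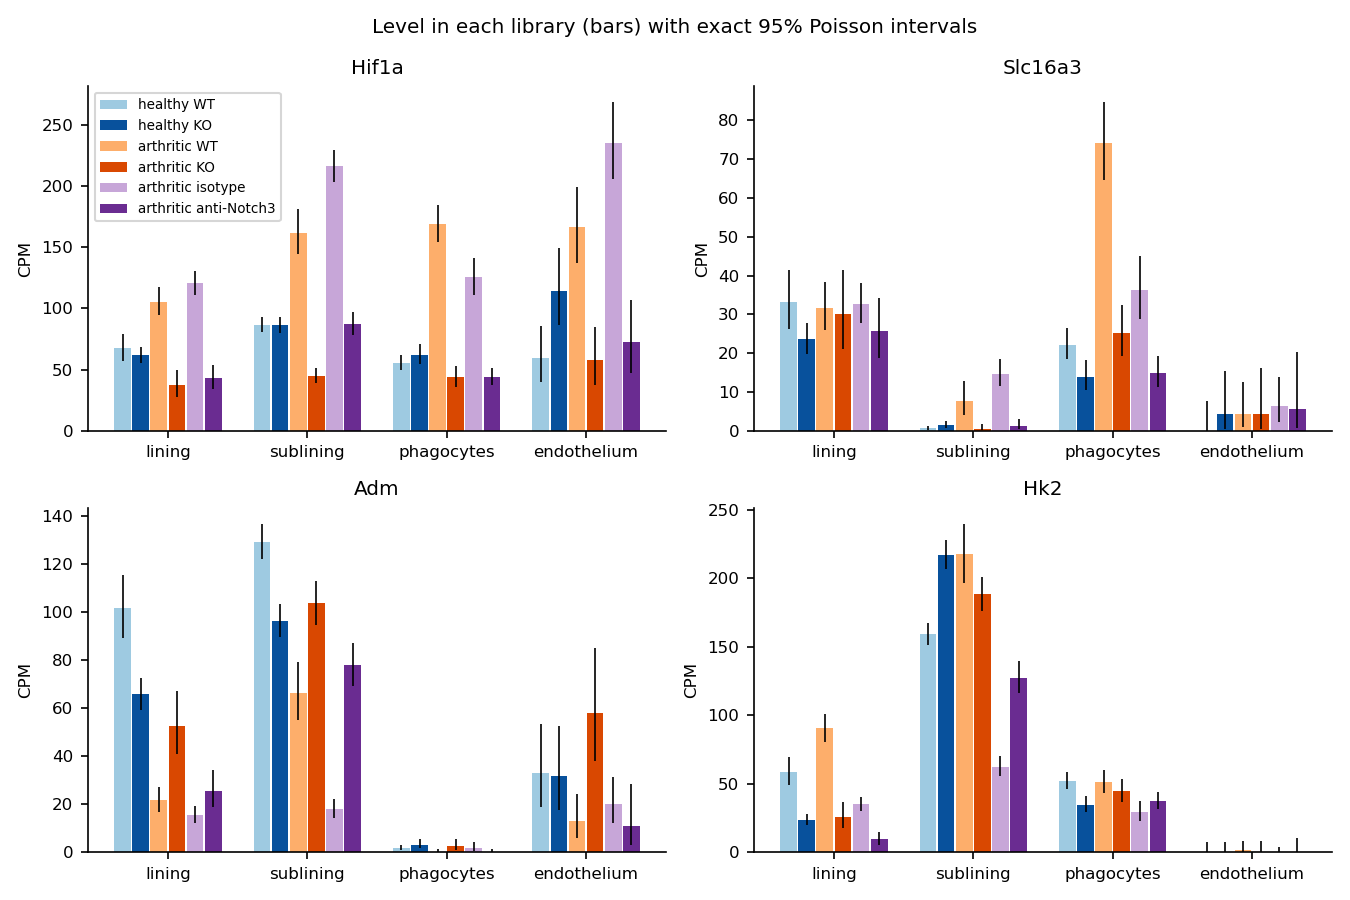
Level (CPM, y axes starting at 0) of Hif1a, Slc16a3, Adm and Hk2 in each library (bars) within 4 gated classes (x axes). Black lines are exact 95% Poisson intervals, which cover counting error only; Hif1a is highest in the arthritic wild type and isotype libraries in each class, and Slc16a3 in lining cells lies between 23.6 and 33.1 CPM in all 6.

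Gated separately after the data had been seen, lining and sublining cells gave calls for partly other members than the mixed fibroblasts. In the lining 5 genes of 27 tested were lower and 0 higher by edgeR, where 2.61% of 9800 genes were lower and 1.53% higher. Hk2 was lower by -1.85 ± 0.23 (90.45 against 26.0 CPM and 35.0 against 9.48), Hif1a by -1.50 ± 0.19 (105.5 against 37.4 and 120.5 against 42.95), Pkm by -0.98 ± 0.21 (437 against 252 and 454 against 206), Pgk1 by -0.96 ± 0.20 and Eno1 by -0.93 ± 0.19. In the sublining Hif1a was lower by -1.48 ± 0.20 (162 against 45.1 and 216 against 87.5) and Pfkfb3 by -2.02 ± 0.44, beside Slc16a3 and Adm. There 2.54% of 10793 genes were called lower and 2.26% higher. Hk2 in the sublining stood at 217 against 188 CPM in the genotype pair and 62.6 against 127.5 in the antibody pair, with opposite directions. The test of the difference between lining and sublining effects was not run.

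Past 1.5-fold in both arthritic pairs, with no test, 9 of 28 genes were lower in fibroblasts and 1 higher, where 5.92% of 11547 genes were lower in both and 5.31% higher. The 9 were Gapdh, Hif1a, Pdk1, Pfkfb3, Pfkl, Pgk1, Pkm, Slc16a3 and Slc2a1. In the lining 10 of 26 were lower (6.97% of 9274 genes) and 2 higher (5.5%), Adm and Pfkp. In the sublining 3 of 25 were lower (5.66% of 9953 genes), Hif1a, Pfkfb3 and Slc2a1, and 1 was higher (2.98%). The isotype library and the arthritic wild type library, both with Notch3 untargeted, also differed from each other: in isotype fibroblasts 3 of 28 genes were past 1.5-fold higher (11.6% of all genes) and 2 lower (10.3%).

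The summed level of the 31 genes in fibroblasts was 3048 and 2403 CPM in arthritic wild type and knockout, 3479 and 2411 with isotype and antiNotch3, and 2642 and 2375 in healthy wild type and knockout. Other lists moved along in the same fibroblasts. The 16 dissociation stress genes, all detected in every library, summed to 21990 and 42550 CPM in arthritic wild type and knockout and to 16540 and 25390 with isotype and antiNotch3, with 2 called higher and a median log2 difference of 0.77. The 8 proliferation genes summed to 52.7 and 25.02 CPM and to 75.8 and 31.2, with 3 called lower. Inflammatory fibroblasts (Saa3, Cxcl5) were 12.4% and 0.0590% of fibroblasts in arthritic wild type and knockout and 4.59% and 0.566% with isotype and antiNotch3. The part of stress, division and subtype mix in the members' differences was not tested. Of 31 further hypoxia genes, 30 were tested, with 4 lower and 0 higher: Lox (-2.37), Plod2 (-2.06) and Higd1a (-1.16) led, the former pair acting on collagen cross-links. Of 24 other glycolysis genes, 18 were tested, and the lactate and pyruvate transporter Slc16a1 was lower (-2.27). None of 15 citric acid cycle genes and none of 16 oxidative phosphorylation genes tested was called by edgeR, with 0 and 2 at an unadjusted p under 0.05.

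In phagocytes 26 genes were tested and 0 were called by edgeR, as was 0.0% of 9357 genes. There 851 of all genes and 7 of the 26 had an unadjusted p under 0.05, and DESeq2 called 42 genes with 1 of the 26. Hif1a was at 169 and 43.7 CPM in arthritic wild type and knockout, at 125 and 44.2 with isotype and antiNotch3, and at 55.7 and 62.05 in healthy wild type and knockout. The 2 untargeted arthritic libraries stood above the other 4. Its log2 difference was -1.69 ± 0.26 (adjusted p = 0.274), with calls under DESeq2 (adjusted p = 0.0197), with no filter on low counts (0.0135) and with library totals alone (0.00258). Slc16a3 was at 74.1 and 25.2 and at 36.3 and 14.9 CPM in the same pairs (-1.39 ± 0.24, adjusted p = 0.323). Pgk1 (-0.90, adjusted p = 0.414) and Ero1l (-0.91, adjusted p = 0.445) were next by p. Monocytes were 32.5% and 7.31% of phagocytes in arthritic wild type and knockout and 11.6% and 9.48% with isotype and antiNotch3. The 16 dissociation stress genes summed to 10290 and 12990 CPM in the genotype pair and to 16000 and 16120 in the antibody pair, with 0 called by edgeR, 8 at an unadjusted p under 0.05 and a median log2 difference of 0.59. The 6 fibroblast markers summed to 242 and 154 CPM and to 656 and 139.5 in these phagocytes. The part of stress, subtype mix and stray fibroblast RNA was not tested. Within monocytes alone Hif1a was at 195 and 59.25 CPM and at 173 and 60.9 in the same pairs. Within resident macrophages it was at 63.6 and 43.75 and at 70.4 and 50.35.

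Past 1.5-fold in both arthritic pairs, 7 of 26 genes were lower in phagocytes (4.79% of 8909 genes) and 0 higher (2.71%). These were Ankrd37, Ero1l, Hif1a, Pgam1, Pgk1, Slc16a3 and Slc2a1. In endothelium 5 of 21 were lower (9.58% of 5926 genes), Eno1, Hif1a, Pgam1, Pgk1 and Pkm, and 3 were higher (8.05%), Bnip3, Ndrg1 and Pfkfb3. Endothelial Hif1a was at 166 and 58.0 CPM in arthritic wild type and knockout, at 235 and 72.7 with isotype and antiNotch3, and at 59.7 and 115 in healthy wild type and knockout, from 26 to 223 UMIs. The lower Hif1a of both targeted arthritic libraries was seen in lining, sublining, phagocyte and endothelial gates.

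**Figure D5:**
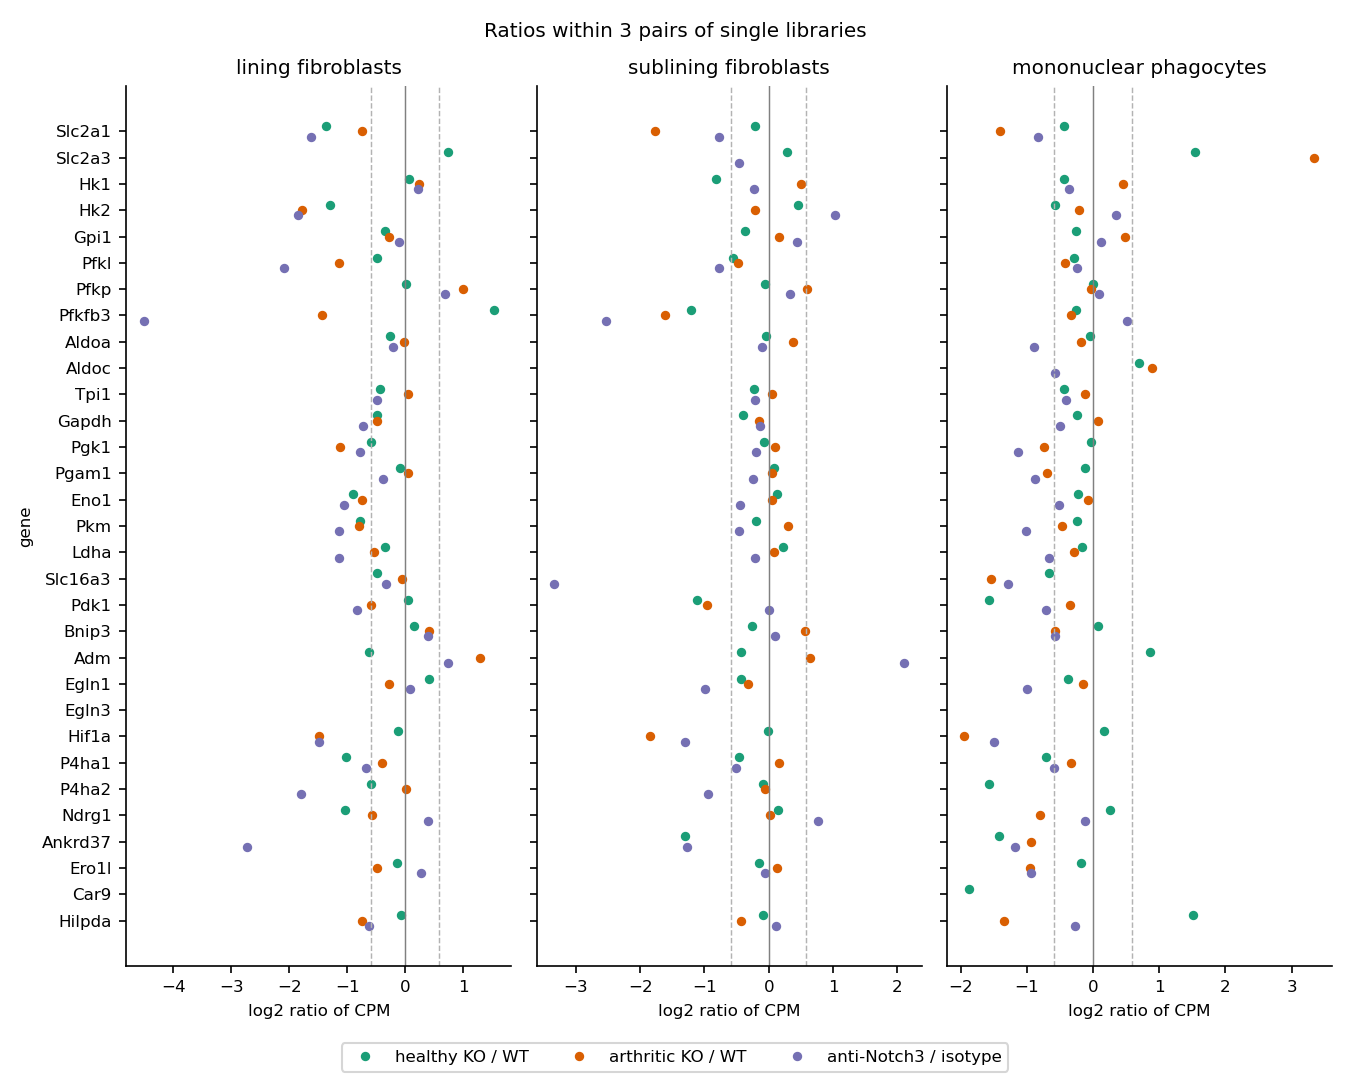
Log2 ratio of CPM (x axes) of each gene (rows) within 3 pairs of single libraries in lining fibroblasts, sublining fibroblasts and phagocytes, for genes with at least 20 UMIs in the pair (pseudocount of 0.5 UMIs). Dashed lines mark 1.5-fold and there is no test; Hif1a lies left of the line in both arthritic pairs in all 3 panels and near 0 in the healthy pair.

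In health, with 1 pair and no test, 1 of 29 genes was past 1.5-fold higher in knockout than in wild type fibroblasts (11.0% of 12793 genes) and 2 lower (17.0%). Hif1a differed by -0.14 on the log2 scale and Slc16a3 by 0.63. When all 3 pairs were fitted together, 0 of 29 genes were called by edgeR in fibroblasts, as was 0.0% of 12837 genes, with 9 of the 29 and 1010 of all genes at an unadjusted p under 0.05. DESeq2 called 164 genes and none of the 29. The smallest p values belonged to Pfkl (-0.96, adjusted p = 0.426), Pfkfb3 (-1.44, 0.530), Slc2a1 (-1.15, 0.554) and Hif1a (-0.96, 0.555). Pfkl was at 6.21 and 4.15 CPM in healthy wild type and knockout, 15.9 and 7.80 in arthritic wild type and knockout, and 16.5 and 5.83 with isotype and antiNotch3, so it was lower in each pair. In lining cells alone, gated after the data had been seen, 2 of 28 genes were lower over the 3 pairs, where 1.09% of 10350 genes were called lower and 0.56% higher. These were Hk2 (-1.64 ± 0.21, adjusted p = 0.0140) and Eno1 (-0.92 ± 0.17, adjusted p = 0.0463).

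The comparison of 4 arthritic with 2 healthy libraries, with Notch3 targeting as a term, gave no call among the 31 genes. In fibroblasts 0 of 29 and 0.0% of 12837 genes were called by edgeR, with 6 of the 29 and 1006 of all genes at an unadjusted p under 0.05, and DESeq2 called 40 genes. Pfkl had the smallest p (1.04 ± 0.26, adjusted p = 0.618), followed by Pfkp (-0.56), Pdk1 (0.62) and Ankrd37 (1.01) at the same adjusted p. Pfkp was at 51.6 and 49.0 CPM in the healthy libraries and at 27.7, 42.75, 31.1 and 39.4 in the arthritic ones, all below both healthy levels. Every arthritic library was above both healthy ones for 3 of the 29 genes, Eno1, Egln1 and Pgam1 (7.93% of all genes), and below both for 2, Pfkp and Egln3 (7.15%). In wild type alone, with no test, 9 of 29 genes were past 1.5-fold higher in arthritic than healthy fibroblasts (15.6% of 12348 genes) and 3 lower (19.2%). In knockout 3 were higher (9.0%) and 1 lower (10.1%).

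In phagocytes 0 of 28 genes and 0.0% of 10230 were called by edgeR, with 7 of the 28 and 900 of all genes at an unadjusted p under 0.05, and DESeq2 called 65 genes. Slc2a3 had the smallest p (-1.96 ± 0.56, adjusted p = 0.464), and its levels stand above beside the share of MHC-II-high cells. Ndrg1 was at 21.85 and 26.1 CPM in the healthy libraries and at 57.9, 33.2, 48.25 and 44.4 in arthritic wild type, knockout, isotype and antiNotch3, with no overlap (1.04 ± 0.30, adjusted p = 0.470). Every arthritic library was above both healthy ones for 5 of the 28 genes, Ndrg1, Pdk1, Slc2a1, Hilpda and Bnip3 (4.36% of all genes), and below both for 1, Pfkp (10.1%). Slc2a1 was at 8.10 and 5.91 CPM in health and at 27.3, 10.1, 15.05 and 8.40 in arthritis, also with no overlap (1.18 ± 0.39, adjusted p = 0.494). Pdk1, which slows the entry of pyruvate into mitochondria, differed by 1.31 ± 0.39 (adjusted p = 0.472), at 5.11 and 1.61 against 7.07, 5.47, 10.2 and 6.23 CPM. With no filter on low counts, 530 genes were called, among them 4 members higher and 1 lower.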

How the data were processed

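Single-cell RNA-seq of mouse synovium was measured in 6 libraries, 1 per group. The authors deposited raw UMI counts per gene and barcode, made with Cell Ranger 3.0.2 and mm10 per the submitters' processing notes. Depth was 11636998 to 24535233 UMIs per library, and no library has a replicate. The p-values measure the spread between these libraries, moderated by edgeR with the spread over all genes. Barcodes above 10% mitochondrial UMIs were left out. Classes were gated by marker UMIs, with minimums of 10 for fibroblasts and phagocytes, 3 for endothelium and 20 for neutrophils. Barcodes passing more than 1 gate were left out, among them neutrophil-positive barcodes that also passed the fibroblast gate. The exception was that gated neutrophils could also pass the phagocyte gate, if C1qa, C1qb, C1qc and Csf1r together gave under 5 UMIs. Counts were summed per library and class and tested across all genes with edgeR 4.0.16 (R 4.3.3, quasi-likelihood, TMM, filterByExpr, Benjamini-Hochberg, 0.05). Class comparisons had the library as a block, and the Notch3 comparison had the pair. Residual degrees of freedom were 1 for 2 pairs, 2 for 3 pairs and 3 for arthritis. Ratios of single pairs had a pseudocount of 0.5 UMIs and a minimum of 20 UMIs. Poisson intervals are exact at 95% and cover counting error only. The planned neutrophil test was not run, since no library held 20 gated cells. Alternatives were RLE scaling, no filter, DESeq2 1.42.0, doubled gates, all barcodes, leaving out the barcodes with the highest 3% of Scrublet scores in each library (scanpy 1.11.5), and leaving out each library or pair. Lining or sublining alone, fibroblasts without tendon-like and fibrocartilage-like cells, scaling by totals, and pooled ratios over part of the libraries were added after seeing the data. The tests were tested on simulated data. The members and lists were chosen with earlier results of these data known. Named members passed the threshold in the same direction in every library or pair, up to 8 by size, with others of the same enzyme step. Where none passed, the 4 with the smallest p are named.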

Additional observations from a re-analysis of the deposited data

Results flagged for a closer look

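Of 57 sets of 6 library values that were checked, 1 held a value far from the others, where chance gives about 1 in 20. The difference of Tpi1 between endothelium and fibroblasts was -0.89 on the log2 scale in the arthritic isotype library, and the nearest other library was at -0.45. The effect of targeting Notch3 on Slc16a3 in fibroblasts differed between the arthritic pairs and the healthy pair, with a log2 difference of effects of -2.59 ± 0.34 (SE; adjusted p = 0.0252, edgeR interaction over 13428 genes, 191 of them called). The healthy arm is 1 pair of single libraries. The error rests on the disagreement of the 2 arthritic pairs (1 residual degree of freedom), moderated by edgeR with the spread over all genes. The spread of the healthy effect is therefore assumed and not measured. In health Slc16a3 was at 6.08 CPM in wild type and 9.44 in knockout cells, and in both arthritic pairs it was lower where Notch3 was targeted. The share of lining cells, in which Slc16a3 is high, was 11.8% without and 24.8% with the knockout in health. In arthritis this share was 38.4% and 10.4% in the genotype pair, and 27.25% and 20.8% with isotype and antiNotch3. Within the lining alone, Slc16a3 in health was at 33.1 CPM without and 23.6 with the knockout. The part of subtype mix in the difference of effects was not tested.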

How the results depend on the processing

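The labels carry no replicate numbers, so the fits were blocked by library or by pair only, and without 1 of the 2 arthritic pairs no residual degrees of freedom remain. Of the counts of calls, 300 alternatives stayed within 1.5 times the reported count and 39 moved; the cause was not tested. Members higher in the lining were 11 with library totals. Members higher in monocytes were 4 with DESeq2, 3 with doubled gates and 3 with totals, and those lower were 2 with totals and 0 to 1 when a library was left out (1 without arthritic wild type). For Notch3 in arthritic fibroblasts, no filter gave 2 higher, 8 lower and 1099 genes, all barcodes 257 genes, totals 249 genes, and lining alone 0 higher and 5 lower. In phagocytes, no filter gave 2 lower and 113 genes, DESeq2 1 and 42, and totals 2 and 190. Over 3 pairs, no filter gave 40 genes, DESeq2 164, sublining alone 3, and lining alone 171 with 2 members lower. Leaving out a pair gave 0 to 1 members higher, 0 to 3 lower and 0 to 388 genes (388 when the healthy pair was left out, 3 for the antibody pair). For arthritis in fibroblasts, no filter gave 14 genes, DESeq2 40 and lining alone 1. In phagocytes, no filter gave 4 members higher, 1 lower and 530 genes, DESeq2 65 genes, genotype pairs only 8, and leaving out a library 0 to 14 (14 without arthritic knockout, 2 without healthy knockout, 1 without isotype). Eno1 between endothelium and fibroblasts reversed to 0.0253 with totals. The neutrophil alternatives were not run. Sparse members (Car9, Egln3, Aldoc) are limited by depth.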
